A study of Mus musculus with 4 samples.

Results

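The comparison described here is the difference between early night and early day in the liver of mice that kept their adrenal glands. It rests on 2 of the 4 arrays of the series, the sham ZT14 array against the sham ZT2 array, where zeitgeber time (ZT) gives the hours since lights came on. All 12422 probe sets other than the 66 controls of the Affymetrix MG_U74Av2 array were described, and those with 1 gene symbol stood for 8251 genes. All groups were male C57BL/6 mice, of an age not given in the labels. The sham-operated mice had standard chow and water freely available. The remaining 2 arrays held liver of mice without adrenals (ADX, removal of both glands under ketamine and xylazine, saline as drink) at ZT2 and ZT14, and their values are set beside those of the sham pair. Sham surgery leaves the glands in place, so the sham mice kept their own source of corticosterone. How many mice each array represents is not in the labels, nor is the lighting schedule beyond ZT. With 1 array per group no difference has a replicate check, and no p-value is given.

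The liver was the labelled tissue, and its markers were in place. Of 13 hepatocyte markers on the array, 12 were Present at ZT2 and 13 at ZT14, where Present is the deposited call for a probe set detected above background. Their summed signal was 45928 units at ZT2 and 48571 at ZT14. Albumin (Alb) itself read 9342 and 9370 units. None of 12 skeletal muscle markers was Present on any array, nor were 3 of 6 adipose markers (Adipoq, Lep and Retn) or 5 of 7 adrenal cortex markers (Cyp11a1, Star, Hsd3b1, Mc2r and Nr5a1). The other 3 adipose markers were Present on both sham arrays, and that list summed to 4552 and 4004 units. The other 2 adrenal cortex markers were Present on every array, and that list summed to 946 and 1288 units. The blood and immune markers summed to 1714 units at ZT2 and 1519 at ZT14, with 15 of 31 Present on no array, and the red cell markers to 1969 and 1280. In a bulk sample, fewer cells of a type and less RNA per cell cannot be told apart.

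The circadian clock of a liver cell is a loop of transcription. The activators BMAL1 and CLOCK bind E-box sequences and switch on their own repressors, the Period and Cryptochrome genes, and a second loop of REV-ERB and ROR proteins acts on RORE sequences in the Bmal1 gene (Arntl). The loop drives output regulators such as Dbp, Tef and Nfil3, which act on D-box sequences. Feeding, insulin, body temperature and adrenal corticosterone also follow the light cycle and reach liver genes by their own routes. Mice are active and feed mostly in the dark, so ZT2 follows the main feeding time and ZT14 falls near its start.

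In the sham pair, 367 of 12422 probe sets (2.95%) differed at least 2-fold and were Present on the brighter array, which is what passing means below. Of these, 211 (1.7%) were higher at ZT14 and 156 (1.26%) were lower. The split depended on scaling: signals as deposited gave 173 higher and 198 lower, and quantile normalization gave 161 and 193. Counted by gene, 258 of 8251 passed (3.13%), 148 higher (1.79%) and 110 lower (1.33%). These gene shares are the background for every gene group below. Most passing differences were small, since 196 genes lay between 2-fold and 3-fold, 29 between 3-fold and 4-fold, 27 between 4-fold and 8-fold, and 6 at 8-fold or more. Those 6 were Dbp, Usp2 and Noct, which were higher at ZT14, and Elovl3, Igfbp1 and Arntl, which were lower. In the ADX pair, 232 genes passed (2.81%), 127 higher (1.54%) and 105 lower (1.27%).

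**Figure D1:**
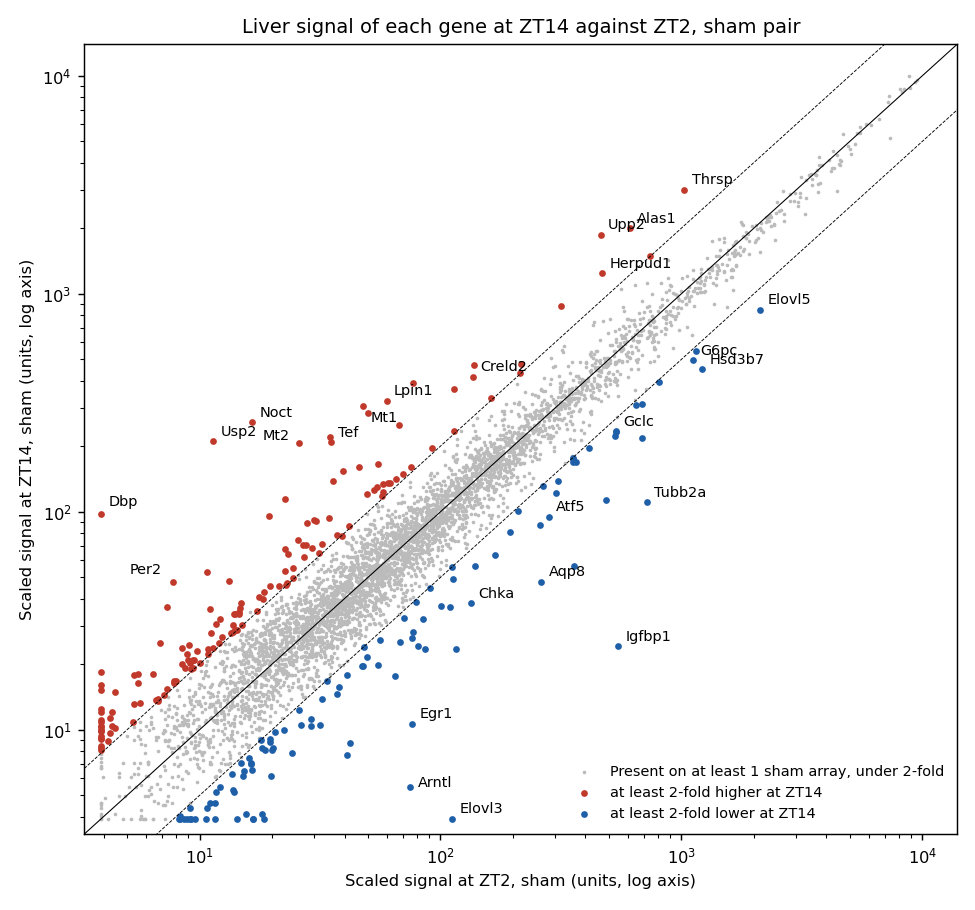
Signal of each gene Present on at least 1 sham array, at ZT2 (x axis) and ZT14 (y axis), in scaled units on log axes with values below the floor of 3.91 units drawn at the floor. Red and blue points passed 2-fold in either direction (148 and 110 genes), the dashed lines mark 2-fold, and the points lie tightest around the diagonal at high signal.

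How much trust a difference deserves depended on its signal. Among probe sets Present on both sham arrays, the robust SD of the log2 difference was 0.46 below 25 units, 0.41 from 25 to 50, 0.35 from 50 to 100, 0.30 from 100 to 400 and 0.20 at 400 or more. A 2-fold difference, which is 1 on the log2 scale, equalled 5.02 such SDs in the brightest class and 2.17 in the dimmest. This spread holds real differences as well as noise and says nothing about other mice. A second measure came from 513 genes with at least 2 probe sets Present on both arrays. Their differences correlated across genes with a Pearson r of 0.41, and of 0.80 for 119 genes whose probe sets both had 100 units or more, where the robust SD per probe set was 0.14. Of the 14 genes whose brighter probe set passed, the second probe set had the same sign in 13 and also passed in 3. Genes are not independent replicates, and probe sets of 1 gene share the RNA, so this agreement covers probes only.

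**Figure D2:**
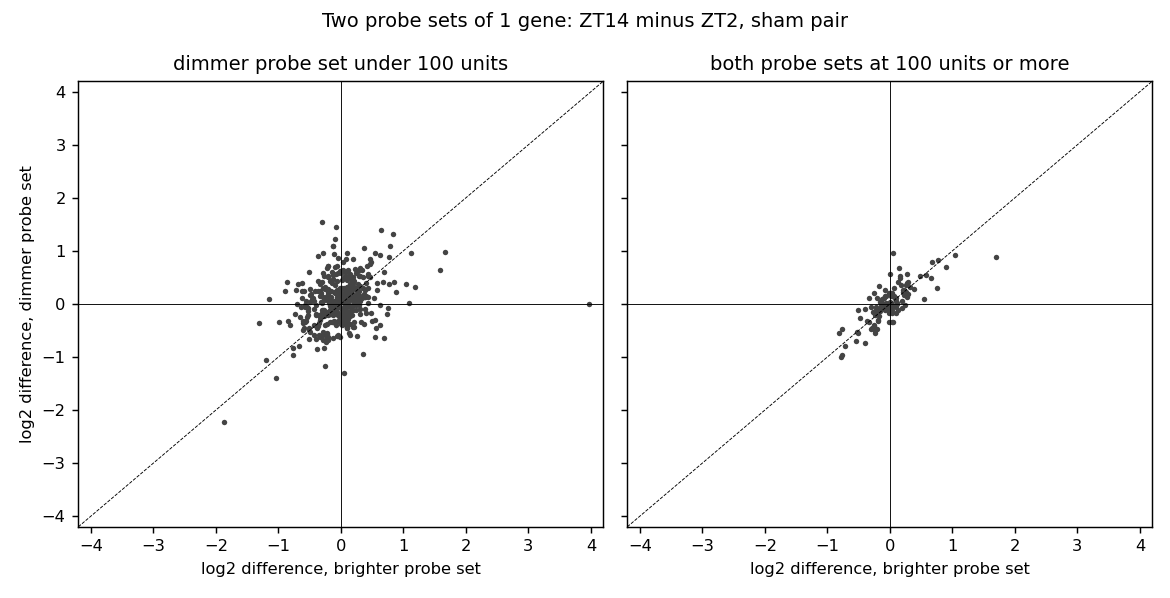
Log2 difference (ZT14 minus ZT2, sham) of the brighter probe set of a gene (x axis) against that of its second probe set (y axis), for genes with both Present on both arrays. The left panel holds genes whose dimmer probe set had under 100 units, the right panel the 119 genes with both at 100 or more, and the lone point far right in the left panel is Noct (3.96 against 0.00).

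Of the 8251 genes, 4149 were Present on both arrays, with a median log2 difference of -0.01, and 149 of them passed (3.59%). Their signal was higher at ZT14 in 2031 (49.0%) and lower in 2118 (51.0%). These shares are the background for sign counts of gene groups in the sham pair. A bright class of 1570 genes, Present on both arrays with a mean signal of 100 units or more, held 49 passing genes (3.12%), 20 higher (1.27%) and 29 lower (1.85%). Near the threshold in this class stood Apob at 1.01 and Zfp36l1 at -1.01 just inside, with Pdcd4, Lasp1, AI506816 and Ethe1 also within -1.04 and 1.02. Just outside stood BC004004 at -0.99, Apcs and Gldc at -0.98, Fpgs at -0.97, Pnp at -0.96 and Tspan4 at 0.94. Nothing separates these groups except the chosen threshold.

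In the clock loop, 3 repressor genes passed as higher at ZT14 and the activator gene Arntl as lower, while the other members did not pass. Of 15 loop genes on the array, 12 were Present on at least 1 sham array, and those that passed as higher were Per2, Nr1d2 and Bhlhe40. The median of the 11 members Present on both was -0.26, and members went both ways. Per2, a core repressor, read 7.77 units at ZT2 and 47.8 at ZT14. Bhlhe40, which encodes the E-box repressor DEC1, read 34.8 and 220.9. Nr1d2, which encodes REV-ERB beta, read 23.4 and 63.9. For all 3 the ZT14 array was the bright one, in the sham pair as in the ADX pair. Arntl, which encodes BMAL1, read 74.9 units at ZT2 and 5.47 at ZT14, a 13.7-fold lower signal. The ZT14 value, though Present, lay near the floor of 3.91 units, so the size of that fold is uncertain. Clock, which encodes the partner of BMAL1, read 39.1 and 27.3, a log2 difference of -0.52 that did not pass.

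The other loop members stayed under 2-fold. Nr1d1, which encodes REV-ERB alpha, read 37.9 units at ZT2 and 31.8 at ZT14 (log2 -0.26). Its paralog Nr1d2 passed, so the REV-ERB genes stood apart at this pair of times, with a log2 difference of -0.26 in one and 1.45 in the other. Cry1 and Cry2, the cryptochrome repressors, had log2 differences of 0.13 and 0.72. Per3 (-0.61), Rora (-0.63) and Csnk1d (-0.31), a kinase of the Period proteins, had lower signals at ZT14. Per1 was Present at ZT14 alone (21.4 units, log2 0.46), and Npas2, Csnk1e and Timeless were Present on neither sham array.

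RefSeq promoter windows (assembly GRCm38.p6, 250 bases before to 50 after each start site) were searched for the RORE letters ANTAGGTCA on both strands, because Arntl is a textbook RORE gene. They were present in 39 of 8412 windows of genes on the array (0.464%), in 1 of 155 windows of genes higher at ZT14 (0.645%) and in 5 of 130 windows of genes lower at ZT14 (3.85%). The 5 windows belonged to Arntl, Nfil3, Fabp7 and Tfpi2, whose pair of windows overlaps and holds 1 match. The 1 window on the higher side was that of Slc37a4. Capitals mark the match in the stretches below, written from 5′ to 3′ on the gene's strand, chr7:113207529-113207558 (plus strand, with the match starting at base 29 after the start site), chr13:52981040-52981189 (minus strand, where the match is in the reverse orientation) and chr9:44396796-44396945 (plus strand). A match is a string of letters and not a measured binding site.
Arntl: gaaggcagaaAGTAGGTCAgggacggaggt
Nfil3: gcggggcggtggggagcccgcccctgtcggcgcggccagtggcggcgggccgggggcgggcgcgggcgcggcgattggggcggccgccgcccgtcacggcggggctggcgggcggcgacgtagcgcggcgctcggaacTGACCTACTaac
Slc37a4: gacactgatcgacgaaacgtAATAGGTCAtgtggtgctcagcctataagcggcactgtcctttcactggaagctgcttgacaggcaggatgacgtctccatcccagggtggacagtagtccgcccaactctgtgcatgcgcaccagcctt

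Most measured clock output genes were higher at ZT14. Of 16 on the array, 9 passed as higher (Dbp, Tef, Noct, Usp2, Wee1, Pim3, Nampt, Alas1 and Klf10) and 1 as lower (Nfil3), with a median log2 difference of 1.05 over the 12 members Present on both arrays. Members were put on this list because of their known rhythms and with earlier results of these data in view. Dbp, a PAR bZIP transcription factor, was not Present at ZT2 (1.2 units) and read 98.2 at ZT14, at least 25.1-fold higher. Tef, its relative, read 35.0 and 208.3. Nfil3, the bZIP repressor that competes for the same D-box, went the other way with 76.8 units at ZT2 and 28.1 at ZT14. The opposed pattern of Nfil3 against Dbp and Tef was present in both pairs of arrays.

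An E-box, CACGTG, was found in 803 of 8412 promoter windows (9.55%), in 17 of 155 windows of genes higher at ZT14 (11%) and in 17 of 130 of genes lower at ZT14 (13.1%). Both Tef start sites in the table have 1, and the stretch of chr15:81802523-81802672 (plus strand, the 150 bases before the upstream start) shows it in capitals.
Tef: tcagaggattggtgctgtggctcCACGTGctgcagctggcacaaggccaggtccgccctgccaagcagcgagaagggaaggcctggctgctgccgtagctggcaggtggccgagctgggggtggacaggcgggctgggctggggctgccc
D-box letters (TTATGTAA or TTACGTAA) stood in 69 windows (0.820%), and among passing genes only in those of Ak4 on the higher side and G6pc on the lower side. The 3 Ak4 windows overlap and hold the same match. Ak4 is named here for its match alone.

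Several output genes carry the clock into metabolism. Nampt, the rate-limiting enzyme of NAD salvage, read 39.3 units at ZT2 and 153.5 at ZT14, a 3.90-fold higher signal (46.2 and 106.0 in ADX). Pim3, a serine and threonine kinase, read 34.4 and 94.1, and in ADX 41.4 and 53.9, under 2-fold. Klf10, a transcription factor induced by TGF beta, read 22.6 and 67.7, with 0.65 on the log2 scale by its other probe set. Noct, which encodes the phosphatase nocturnin, read 16.6 and 258.0, but a second of its 3 probe sets was Present on both arrays and gave 0.00. The third, not Present at ZT2, passed as higher (log2 1.80). Usp2, a ubiquitin protease, was at least 18.5-fold higher, and its other probe set passed too. Wee1, a kinase that holds back mitosis, read 8.70 (Marginal) and 19.3 units and no longer passed with the floor raised to 23.9 units, the 95th percentile of Absent signals. Members under 2-fold were Klf9 (log2 -0.76), Nr1i3 (0.65), Hspa8 (0.30), Cirbp (-0.21) and Ypel3 (-0.12).

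**Figure D3:**
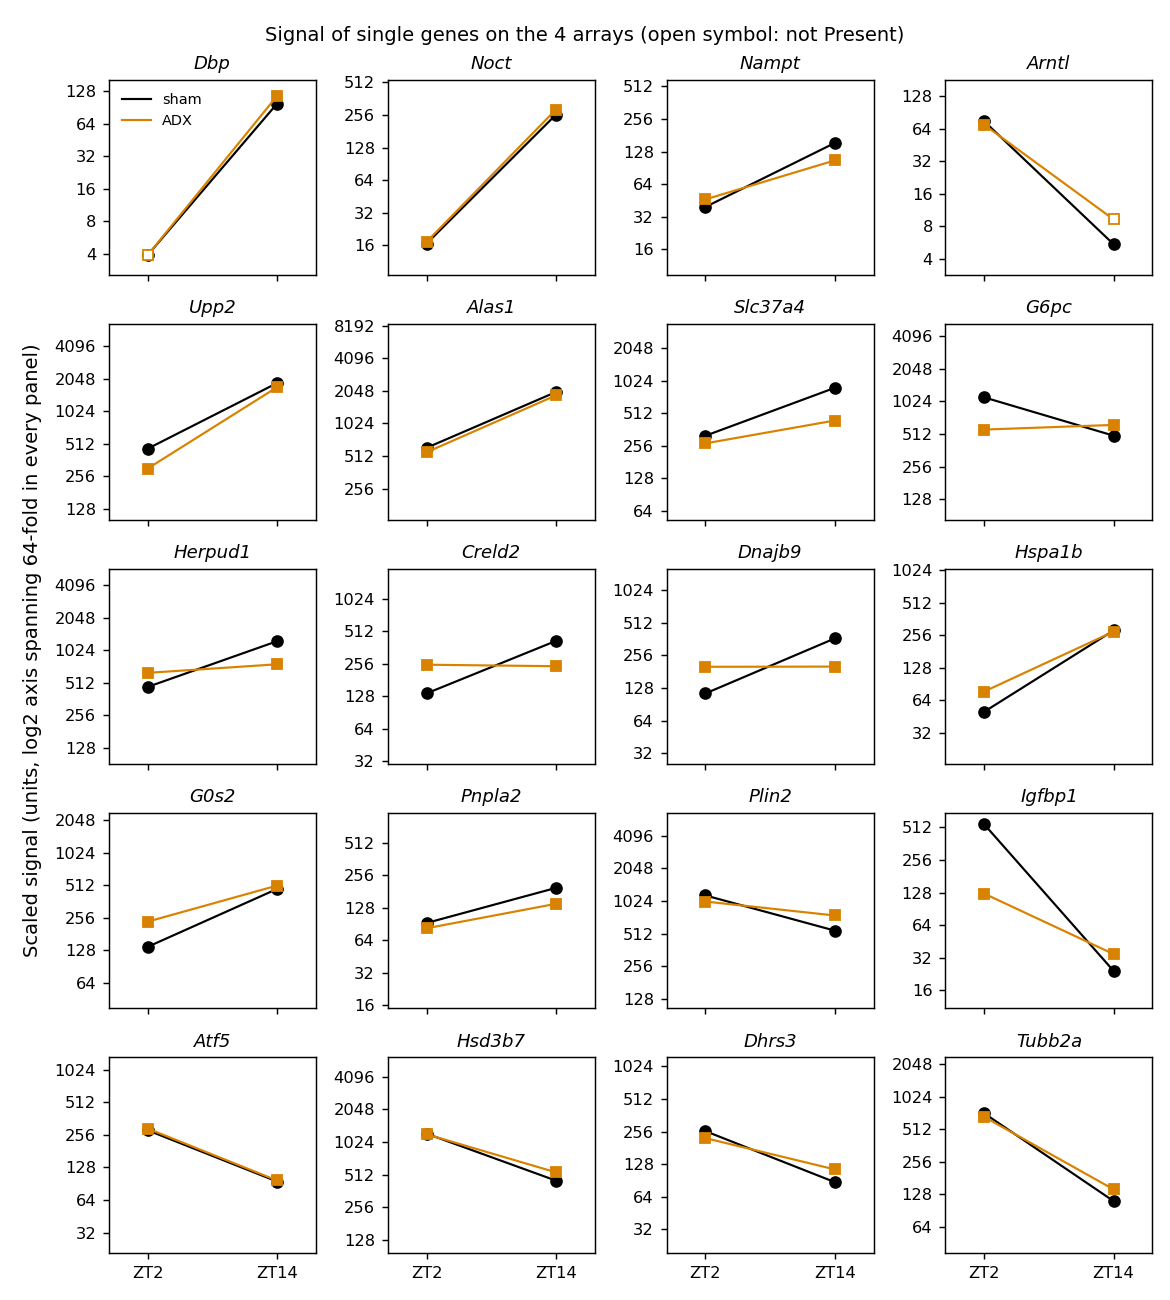
Scaled signal of 20 genes at ZT2 and ZT14 in the sham pair (black circles) and the ADX pair (orange squares), 1 array per point, on log2 axes that each span 64-fold. Clock genes such as Noct and Arntl have near-parallel lines in both pairs, while Creld2 and Dnajb9 have a steep line in sham and a flat one in ADX.

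Upp2, a uridine phosphorylase of the liver, read 462 units at ZT2 and 1869 at ZT14, a 4.04-fold higher signal, and 303 and 1712 in ADX. Alas1, the rate-limiting enzyme of haem synthesis, read 609 and 1998. Thrsp, a lipogenic regulator responsive to thyroid hormone and carbohydrate, read 1030.0 and 2998. All 3 stood higher at ZT14 in both pairs. Rcan1, an inhibitor of the phosphatase calcineurin, read 67.0 and 249.7 units, 3.73-fold higher, and 81.5 and 146.8 in ADX. St3gal5, a ganglioside synthase, read 76.6 and 391.0. Pdxk, which makes the active form of vitamin B6, read 70.1 and 149.2, with 0.01 on the log2 scale by the other probe set.

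The bright genes lower at ZT14 were of varied kinds. Psen2, which encodes the gamma-secretase subunit presenilin 2, read 687 units at ZT2 and 217 at ZT14, with 630.4 and 249.0 in ADX. Aqp8, a water channel, read 262 and 47.7, while Aqp9 (log2 -0.09) and Aqp1 (-0.26) of the same family did not pass. Atf5, a stress-linked bZIP transcription factor, read 282 and 94.8 in sham and 293 and 96.9 in ADX, nearly the same values on both pairs. Tfpi2, an inhibitor of serine proteases, read 529 and 223, and S100a10, the annexin A2 partner, 535 and 231. H3c14, a histone H3 gene, read 489 and 113 in sham but 112 and 81.1 in ADX, where the ZT2 array was already low. Pter, a phosphotriesterase-related gene, read 169 and 63.5 in sham and 125 and 131 in ADX.

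In the sham pair, a few genes of the endoplasmic reticulum (ER) stress response were higher at ZT14 and none passed as lower. These chaperones and degradation factors serve the folding of secreted proteins, of which the hepatocyte makes large amounts. Of 33 list members, 28 were Present on at least 1 array, 4 passed as higher (Dnajb9, Creld2, Herpud1 and Ddit3) and 0 as lower. Of the 27 members Present on both arrays, 18 had a higher signal at ZT14, with a median log2 difference of 0.23, against -0.01 over all such genes. In the ADX pair the same 27 had 9 higher, 18 lower and a median of -0.21. No test of this difference between the pairs is possible with 1 array per group.

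Dnajb9, a co-chaperone of the ER lumen, read 114 units at ZT2 and 367 at ZT14, 3.23-fold higher, and 200.8 and 201.6 in ADX. The second Dnajb9 probe set gave 0.88 in sham and 0.06 in ADX on the log2 scale. Creld2, an ER protein induced by unfolded proteins, read 136 and 416, and 251 and 243 in ADX. Herpud1, which acts in the disposal of misfolded ER proteins, read 469 and 1241, and 633 and 759 in ADX. For these genes the sham ZT2 array was the lowest of the 4 and the sham ZT14 array the highest, with the ADX arrays between. Ddit3, which encodes the transcription factor CHOP, read 19.6 and 45.5 and no longer passed with the floor at 23.9 units (log2 0.93). Unlike the other 3 passing genes, Ddit3 also passed as higher in ADX, with 28.3 (Marginal) and 58.4 units. Among members under 2-fold were Pdia4 (0.75 in sham, -0.31 in ADX), Manf (0.52 and -0.21), Pdia3 (0.48 and -0.43), Hsp90b1 (0.32 and -0.14) and Hspa5, which encodes the main ER chaperone BiP (0.23 and -0.19). Each of these 5 had a higher signal at ZT14 in sham and a lower one in ADX. Xbp1 (-0.42) and Pdia6 (-0.40) had lower signals in sham.

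The classical ER stress element, CCAAT and CCACG separated by 9 bases, was searched after these values had been seen. It stood in 12 of 8412 promoter windows (0.143%), among them those of Creld2 and Hspa5. Among genes higher at ZT14 it stood in 1 of 155 windows (0.645%), that of Creld2, and among genes lower in 0 of 130. The windows of the other passing ER genes, Dnajb9, Herpud1 and Ddit3, did not hold it. The stretches below are chr15:88819496-88819645 (plus strand, match in the reverse orientation) and chr2:34771940-34772089 (plus strand), the 150 bases before each start, with the element in capitals. They show that the letters are shared by a gene that passed and by one that did not.
Creld2: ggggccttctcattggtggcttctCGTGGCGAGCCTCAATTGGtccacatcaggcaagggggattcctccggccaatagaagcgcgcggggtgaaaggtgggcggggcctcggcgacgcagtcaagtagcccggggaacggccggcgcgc
Hspa5: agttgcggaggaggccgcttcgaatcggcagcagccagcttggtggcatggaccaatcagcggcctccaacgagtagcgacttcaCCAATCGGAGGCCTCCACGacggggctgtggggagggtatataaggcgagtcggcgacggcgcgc

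**Figure D4:**
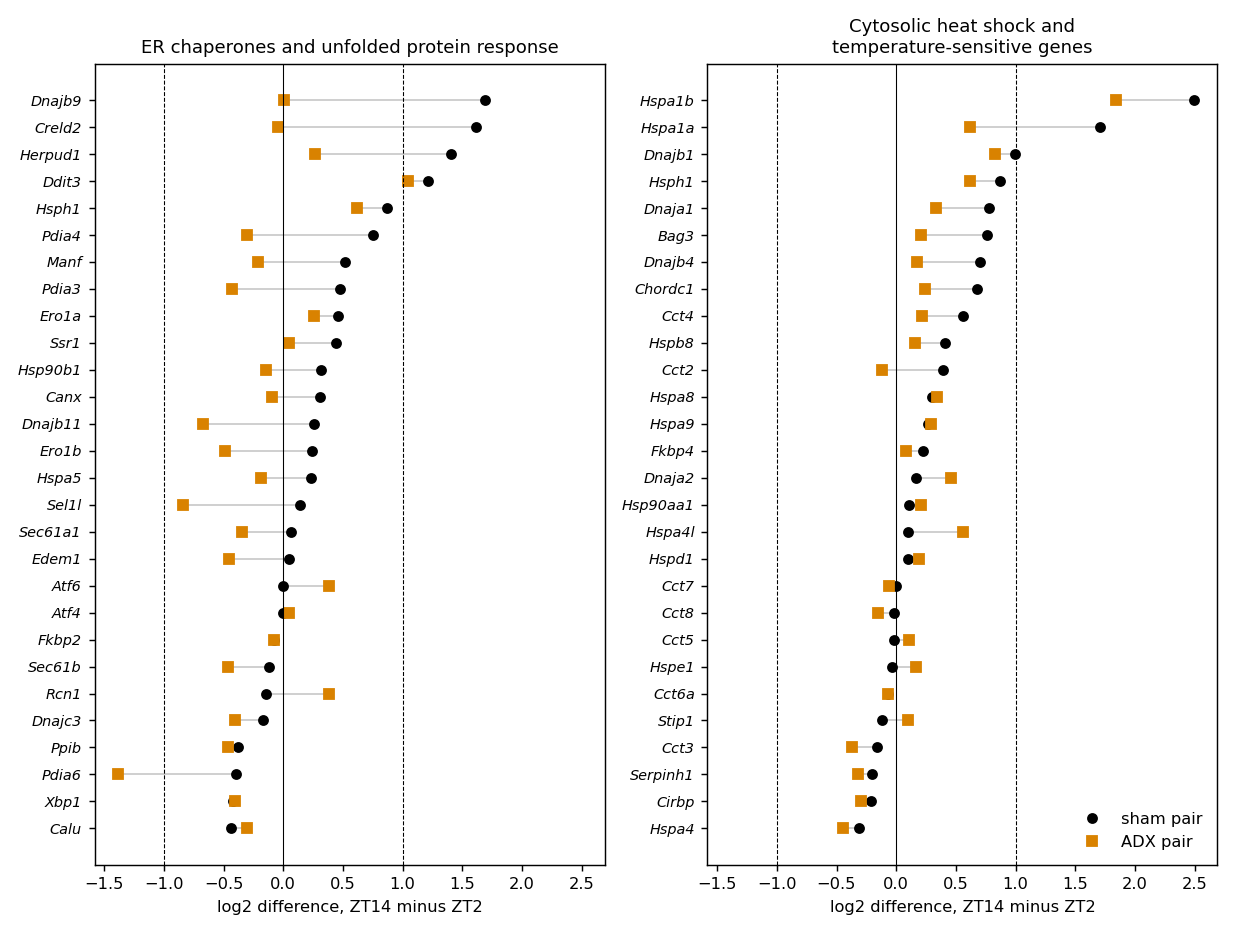
Log2 difference (ZT14 minus ZT2) of each ER list member (left) and each cytosolic heat shock list member (right) Present on at least 1 sham array, in the sham pair (black circles) and the ADX pair (orange squares), with dashed lines at 2-fold. In the left panel 18 of 27 members Present on both arrays lie above 0 in sham and 9 in ADX, while the cytosolic members have medians of 0.19 and 0.18.

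Among cytosolic heat shock genes, the calls were those of the inducible HSP70 pair. Of 34 list members, 28 were Present on both arrays, and 2 passed as higher (Hspa1b and Hspa1a) and 0 as lower. The median log2 difference was 0.19 in sham and 0.18 in ADX, where Hspa1b passed (1.84) and Hspa1a did not (0.62). Hspa1b read 50.1 units at ZT2 and 283 at ZT14, a 5.64-fold higher signal, and Hspa1a 11 and 35.9, the latter under 2-fold with the floor at 23.9 units (log2 0.59). Both encode the inducible HSP70 and are near-identical genes, so their probe sets may share transcripts and were not told apart. Below the threshold were the HSP40 co-chaperones Dnajb1 (0.99), Dnaja1 (0.77) and Dnajb4 (0.71), the HSP110 gene Hsph1 (0.87), Bag3 (0.76, and 0.20 in ADX) and Chordc1 (0.68, and 0.25 in ADX). Cirbp, which rises in the cold, had a log2 difference of -0.21. The promoter stretches of the HSP70 pair, chr17:34972157-34972306 and chr17:34959239-34959388 (both minus strand), have 149 of 150 bases the same, with the heat shock core GAANNTTC in capitals. That core stood in 5.87% of all windows. Its share was 5.16% in windows of genes higher at ZT14 and 9.23% in windows of genes lower at ZT14.
Hspa1a: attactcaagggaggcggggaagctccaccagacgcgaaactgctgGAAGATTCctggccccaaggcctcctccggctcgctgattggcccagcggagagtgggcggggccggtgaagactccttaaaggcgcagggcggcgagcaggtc
Hspa1b: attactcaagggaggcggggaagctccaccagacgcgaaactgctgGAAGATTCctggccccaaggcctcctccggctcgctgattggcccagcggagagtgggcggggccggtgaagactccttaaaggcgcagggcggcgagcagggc

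Metallothioneins, small proteins that bind zinc and copper, had some of the steepest differences of the pair. Of 13 genes of metal binding and transport on the array, 2 passed as higher, Mt1 and Mt2, and 0 as lower. Mt1 read 47.8 units at ZT2 and 307 at ZT14, and Mt2 read 25.8 and 206.5. In ADX, Mt1 read 50.3 and 861, and Mt2 50.5 and 328. The ZT14 array was the bright one in each pair for both genes. The other members Present on both arrays lay between -0.45 (Cp, ceruloplasmin) and 0.26 (Hamp, the iron hormone hepcidin). The genes are neighbours on chromosome 8, and the metal response core TGCNCNC, which a majority of windows hold (58.8%), is in capitals in chr8:94178939-94179088 and chr8:94172468-94172617 (both plus strand).
Mt1: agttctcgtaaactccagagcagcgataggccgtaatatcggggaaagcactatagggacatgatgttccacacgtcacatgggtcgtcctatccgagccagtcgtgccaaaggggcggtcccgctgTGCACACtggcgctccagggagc
Mt2: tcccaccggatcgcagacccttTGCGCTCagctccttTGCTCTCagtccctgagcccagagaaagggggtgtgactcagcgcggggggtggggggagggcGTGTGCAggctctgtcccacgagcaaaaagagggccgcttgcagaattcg

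Haem and redox genes split between a few members. Of 28 on the array, 3 passed as higher (Alas1, Hmox1 and Gpx1) and 1 as lower (Gclc), with a median of 0.02. Hmox1, the haem oxygenase, read 29.9 units at ZT2 and 91.6 at ZT14, and 60.9 and 82.7 in ADX, so the sham ZT2 array was the low one of the 4. Gpx1 read 18.5 and 42.8 and no longer passed with the floor at 23.9 units. Gclc, the catalytic subunit that limits glutathione synthesis, read 536 and 234. Its partner subunit Gclm did not pass (0.13). The later haem enzymes Alad (0.01), Urod (-0.13), Cpox (0.08) and Fech (0.00) did not pass either.

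Known glucocorticoid-induced genes, listed with earlier results of these data in view, went in both directions. Of 31 on the array, 7 passed as higher (Mt1, Mt2, Lpin1, St3gal5, Zbtb16, Fkbp5 and Dusp1) and 3 as lower (Igfbp1, Pdk4 and G6pc), and the 26 Present on both arrays had a median of 0.22. Zbtb16, a zinc finger repressor, read 22.7 units at ZT2 and 114 at ZT14 in sham, and 14.2 and 14.5 in ADX. Its log2 difference was 2.33 in sham and 0.03 in ADX. Lpin1, a phosphatidate phosphatase, read 59.9 and 324 in sham, and 28.5 and 44.3 in ADX. Dusp1, a phosphatase of MAP kinases, read 55.3 and 166, and 80.2 and 127 in ADX. Fkbp5 read 45.8 and 160.8 in sham, and 40.1 and 60.5 in ADX. Mt1, Mt2 and St3gal5 (60.9 and 144.2 units) passed as higher in ADX as well. In the ADX pair 4 list members passed as higher and 3 as lower, and 19 of the same 26 had a higher signal. Members under 2-fold included the amino acid enzymes Tat (0.16) and Tdo2 (0.20), Sgk1 (-0.10) and Ddit4 (-0.08).

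Glucose output genes did not move together. Of 18 on the array, 1 passed as higher and 1 as lower, and these were the partners of 1 enzyme system. Slc37a4, the transporter that brings glucose 6-phosphate into the ER, read 317 units at ZT2 and 879 at ZT14, 2.77-fold higher. G6pc, the phosphatase that acts on it there, read 1117 and 494.5, 2.26-fold lower. In ADX, Slc37a4 read 269.5 and 439 and G6pc 563 and 622, both under 2-fold. Pck1, the committed enzyme of glucose synthesis, read 326 and 579 (log2 0.83) and did not pass in sham. Slc2a2 (0.61) and Ugp2 (0.53) were also higher without passing, and Fbp1 (0.02) and Pcx (-0.43) did not pass.

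The insulin and IGF axis had 6 of 21 members past 2-fold, evenly split. Igfbp1, an IGF binding protein that insulin represses, read 547 units at ZT2 and 24.1 at ZT14, 22.7-fold lower, and 125 and 34.6 in ADX. The sham ZT2 array was far above the other 3. Socs2, a feedback inhibitor of growth hormone signalling, read 84.4 and 32.3, and 43.1 and 55.0 in ADX. Irs2, the insulin receptor substrate, was Present at ZT2 (25.8 units) and not at ZT14 (12.3), at least 2.10-fold lower. On the higher side were Igfbp3, 22.6 and 53.5, Pik3r1, the regulatory subunit of PI3 kinase, 12.1 and 32.2, and Grb10, an insulin receptor adaptor, 4.26 (not Present) and 9.68. With the floor at 23.9 units Irs2, Pik3r1 and Grb10 no longer passed, and neither Igfbp3 (0.57) nor Grb10 (0.57) passed when all probe sets of the gene were averaged. Igf1 (-0.15), Igfals (-0.09) and Ghr (-0.13) did not pass.

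Of 16 lipid droplet and adipose-linked genes, G0s2 and Pnpla2 passed as higher and Plin2 as lower. Pnpla2, the lipase ATGL that starts triglyceride breakdown, read 92.5 units at ZT2 and 195 at ZT14. G0s2, the protein that inhibits that lipase, read 138 and 474. Both were thus higher together in the sham pair, enzyme and inhibitor alike. Pnpla2 lay near the threshold (log2 1.08), and with signals as deposited G0s2 alone passed as higher. Plin2, which coats lipid droplets, read 1153 and 545, and 1012 and 752 in ADX. The adipocyte genes Adipoq, Lep and Retn were Present on no array. Fabp4 (0.19) and Lipe (0.55) did not pass.

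Of 24 genes of glycolysis and fatty acid synthesis, 3 passed as higher and 2 as lower. The fatty acid elongases divided, with Elovl6 (114 and 234 units) and, below 2-fold, Elovl2 (0.57) on the higher side, and Elovl5 (2125 and 846) and Elovl3 (112 and not Present, at least 28.6-fold) on the lower side. Scd1 (-0.51), Fasn (0.29), Acly (-0.69) and Me1 (-0.67), central enzymes of the pathway, did not pass. Apob, the structural protein of VLDL, read 741 units at ZT2 and 1487 at ZT14, while both ADX arrays read near the sham ZT2 level (764 and 760.3). It lay at the threshold (log2 1.01) and did not pass with signals as deposited (0.93). Of 21 apolipoprotein and lipoprotein genes Apob and Saa4 passed, and Apoa1 (0.10), Apoe (0.18) and Mttp (-0.25) did not.

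Fatty acid oxidation gave 2 passing genes of 27, both lower at ZT14. Cyp4a14, a fatty acid hydroxylase driven by PPAR alpha, read 649 units at ZT2 and 310 at ZT14 in sham, and 217 and 389 in ADX, log2 differences of -1.07 and 0.84. Pdk4, the kinase that shuts off pyruvate oxidation, read 26.4 and 10.6, a call that ended with the raised floor (-0.14). Ehhadh (-0.80), Acot1 (-0.69) and Cyp4a10 (-0.37) had lower signals in sham, while Ppara itself (0.78) and Cpt1a (0.77) had higher ones. None of these 5 passed.

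Bile acid genes passed in both directions, and 1 gene of cholesterol synthesis passed as lower. Hmgcs1, which makes HMG-CoA, read 354 units at ZT2 and 170 at ZT14 and was the only passing gene of 18 in cholesterol synthesis, with a median of -0.28 over the 17 Present on both arrays. Of these 17, 12 were lower at ZT14 in sham and 16 in ADX, where the median was -0.52. In ADX, 5 genes of the list passed as lower, Hmgcs1 among them. Of 16 bile acid genes, all Present on both arrays, Cyp7a1 passed as higher and Hsd3b7 and Cyp8b1 as lower. These act in sequence: Cyp7a1, the rate-limiting first step, read 52.9 and 126, Hsd3b7, the second, read 1223 and 450.3, and Cyp8b1, which sets the share of cholic acid, read 686.5 and 312. The other 13 genes did not pass, and the median over all 16 was 0.03. The transporters Slc10a1 (0.06), Abcb4 (0.01) and Abcc2 (0.49) did not pass. In retinoid handling, 2 of 15 passed, both lower at ZT14 and both reductases of retinal. Dhrs3 read 259 and 87.4 units, and Rdh11 302 and 122. Rdh11 did not pass when its probe sets were averaged (-0.76).

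**Figure D5:**
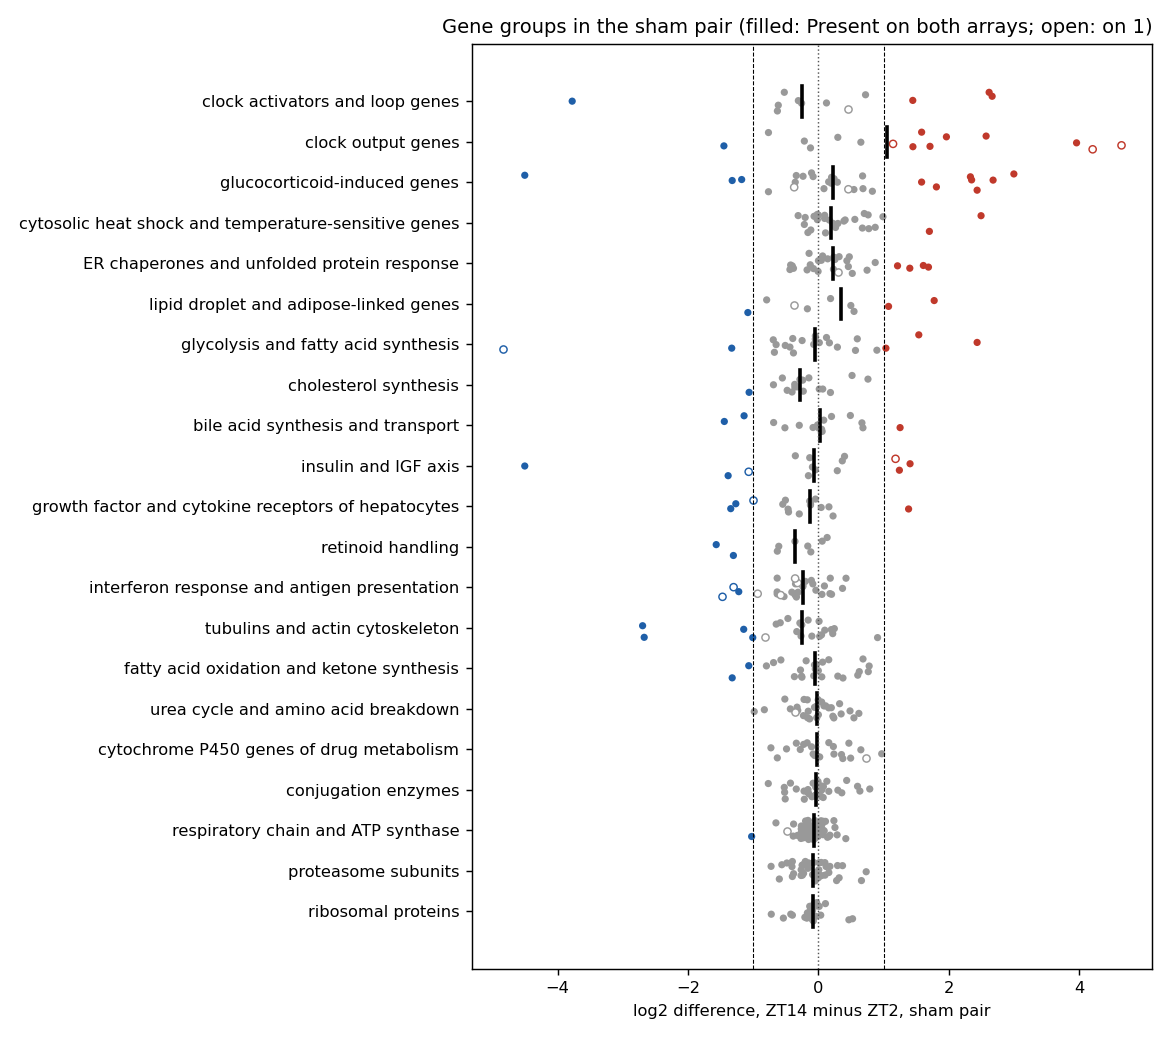
Log2 difference (ZT14 minus ZT2, sham) of every member Present on at least 1 sham array in 21 gene groups, filled where Present on both arrays and open where Present on 1, red or blue past 2-fold, with a bar at the median of the members Present on both. The clock output genes have the highest median (1.05), and the ribosomal, proteasome and drug metabolism groups have medians near 0 and no passing member.

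Receptors on the hepatocyte surface were mostly on the lower side. Of 21 on the array, 3 passed as lower (Avpr1a, Erbb3 and Adra1b) and 1 as higher (Il1r1), and 12 of the 16 Present on both arrays had a lower signal at ZT14, with a median of -0.13. In ADX, 12 of these 16 were lower as well, with a median of -0.23. Such a lean was not particular to receptors. In sham, 18 of 25 acute phase genes and 15 of 20 coagulation factors were also lower, while the ER list leaned the other way. Avpr1a, the vasopressin V1a receptor, read 37.2 units at ZT2 and 14.7 at ZT14, and its other probe set gave -1.51. Adra1b, the alpha 1B adrenergic receptor, read 48.1 units at ZT2 and 24.0 at ZT14, where it was Marginal, so its fold is a bound that lies at the threshold itself. Erbb3, a neuregulin receptor, read 195 and 81.2. Il1r1, the interleukin 1 receptor, read 27.0 and 70.6 in sham, and 42.4 and 41.1 in ADX. With the floor at 23.9 units Avpr1a no longer passed (-0.64). Egfr (-0.50), Met (-0.46) and Gcgr (-0.12) did not pass.

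Immediate early genes, which cells switch on within minutes of a stimulus, went both ways. Of 35 on the array, Dusp1, Klf10 and Ccn2 passed as higher and Egr1, Btg1, Ccn1 and Zfp36l1 as lower. Egr1, a zinc finger transcription factor, read 76.3 units at ZT2 and was not Present at ZT14 (10.7), at least 7.17-fold lower. Btg1, a growth inhibitor, read 81.1 and 24.3. Zfp36l1, which promotes decay of AU-rich mRNAs, read 354 and 176. The Present signals of Ccn1 and Ccn2, matrix-associated growth regulators, were 11.8 and 15.1 units, and neither passed with the floor at 23.9. Fos (-0.45), Myc (0.03) and Jund (0.26) did not pass. Among cell cycle genes, 4 of 46 passed, and the widest was Ccng2, a cyclin of growth arrest, with 116 and 23.4 units. Mcm7 (55.9 and 25.9) was also lower, and the higher ones, Ccnb2 and Wee1, did not pass with the raised floor or with quantile normalization.

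Among liver transcription factor families, 4 of 46 passed as higher (Klf17, Klf10, Foxa3 and Nfix) and 2 as lower (Atf5 and Crebrf). Foxa3, a pioneer factor of hepatocytes, read 60.3 units at ZT2 and 135 at ZT14, while Foxa1 (-0.12) and Foxa2 (-0.14) did not pass. Nfix read 57.2 and 118, with 0.37 by its other probe set. Klf17 (at most 16.1 units) and Crebrf (20.2 and 8.21) did not pass with the floor at 23.9. Of 39 nuclear receptors only Nr1d2 passed. Hnf4a (0.41), Nr3c1, the glucocorticoid receptor (0.28), Rxra (0.20) and Nr1h4, the bile acid receptor FXR (0.68), did not.

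Beta tubulin genes were lower at ZT14, while alpha tubulin genes did not pass. Of 29 tubulin and actin cytoskeleton genes, 0 passed as higher and 4 as lower (Tubb2a, Tubb3, Tubb5 and Tmsb10). A lower signal was read in 13 of 21 Present on both arrays, against 51.0% of all such genes. Tubb2a read 718 units at ZT2 and 111 at ZT14, Tubb3 359 and 56.4, and Tubb5 306 and 139. In ADX they read 666 and 142, 357 and 92.0, and 300.4 and 182. Beta tubulins are a family of similar sequence, and these probe sets may share transcripts. The brain isotype name of Tubb3 is therefore uncertain here, and a second, undetected probe set of Tubb2a brought its average to -0.40. Averaging also took Tubb5 to -0.91, which left 2 of the 4 calls. The alpha tubulins Tuba1a (-0.27), Tuba1c (-0.28) and Tuba4a (-0.25) did not pass. Of the actins, Actb gave 0.10 and Actg1 0.91.

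Interferon response and antigen presentation genes leaned to ZT2 in the sham pair. Of 36, 0 passed as higher and 3 as lower (Ifit1, Eif2ak2 and Rsad2), and 18 of the 25 Present on both arrays had a lower signal at ZT14, with a median of -0.24. In ADX the median of these 25 was 0.10, with 16 higher. Ifit1 read 29.0 and 10.5 (Marginal) units and Rsad2 32.1 and 13.8. No passing gene exceeded 32.1 units on the sham arrays, and with the floor at 23.9 units all 3 calls ended. The blood and immune markers were on the same side, with 10 of 11 Present on both arrays lower at ZT14 and Ighm passing as lower, a call that also ended with the raised floor. Their part in the result was not tested.

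Several large groups had no member past 2-fold in the sham pair. These were 32 genes of the urea cycle and amino acid breakdown, 32 cytochrome P450 genes of drug metabolism, 40 conjugation enzymes, 46 proteasome subunits, 35 ribosomal protein genes, 25 ABC transporters and 17 complement components. Their medians over members Present on both arrays lay between -0.11 (complement) and 0.02 (ABC transporters). Small medians did not mean balanced signs. Of 25 ribosomal protein genes Present on both arrays, 20 were lower at ZT14 in sham and 19 in ADX, while 9 of 14 ABC transporters were higher in sham. Of 81 genes of the respiratory chain and ATP synthase, 1 passed, the assembly factor Uqcc3, at 34.0 and 16.7 units. Of 154 solute carriers, 3 passed as higher (Slc5a6, Slc20a1 and Slc37a4) and 1 as lower (Slc44a1). Of 29 acute phase genes, Saa4 alone passed, with 217 units at ZT2 and 475 at ZT14, and 297 and 310 in ADX. With 3.13% of all genes passing, an absence of calls in lists of these sizes does not set them apart from genes in general. This rule does not call differences smaller than 2-fold in these groups.

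Read in the ADX pair, which shares no array with the sham pair, the bright passing genes mostly kept their sign. Of the 20 higher at ZT14, 18 had the same sign there, 9 passed the same way and 7 differed by less than 1.5-fold, and their median log2 difference was 1.58 in sham and 0.80 in ADX. Of the 29 lower, 26 had the same sign, 13 passed the same way and 7 differed by less than 1.5-fold, with medians of -1.21 and -0.91. The genes were chosen by their sham values, so a smaller median in the other pair is built into the choice. Over all genes on the array, 1.54% passed as higher and 1.27% as lower in ADX. How often genes in general keep their sign between the pairs was not counted, so the sign shares have no background. Over all passing genes, 112 of 148 higher ones and 89 of 110 lower ones had the same sign in ADX, 34 and 32 passed the same way, and 81 and 47 differed by less than 1.5-fold there. Their medians were 1.26 and -1.28 in sham and 0.44 and -0.48 in ADX.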

How the data were processed

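Total RNA of mouse liver was measured on 4 Affymetrix MG_U74Av2 arrays, 1 per group, and groups and times were read from the sample titles. Per the file headers, the deposited intensity of a probe set is an absolute Signal, computed from 1 array and linear. A detection call accompanies it, and the deposited detection p-value entered only through that call. How the authors scaled the arrays, and with which software, is not given in the sources used here. A deposited series value table held the same intensities (largest difference 0), and array run sheets were not used.

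Signals were multiplied to a common 2% trimmed mean (deposited means of 64.2 and 60.8 in sham, 57.0 and 55.7 in ADX, ZT2 first), raised to 3.91 units where lower (this floor is the median Absent signal, and the lowest Present signal was 3.05), and put on the log2 scale. A difference of at least 2-fold passed if its brighter array was Present. Folds whose dimmer array was Marginal or Absent are lower bounds, written as "at least". Probe sets called Present, controls included, numbered 5865 and 5611 on the sham arrays. The number of arrays limits the precision.

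Platform annotation named 10833 probe sets with 1 symbol, gave more than 1 symbol to 396, and 1193 were not listed. The RefSeq table of GRCm38.p6 held 10817 of these identifiers. For each gene the probe set brightest on average (mean log2 signal of all 4 arrays) was used. Promoter windows covered 6576 of the 8251 genes, some with several start sites. The cAMP response element TGACGTCA stood in 2.6% of all windows, 1.9% of those of higher genes and 3.1% of those of lower genes. For the glucocorticoid response element core ACANNNTGT these shares were 4.7%, 5.2% and 4.6%.

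The comparison, the 41 gene groups, the 11 marker lists (1273 distinct genes in the gene groups) and the motifs were chosen with earlier results of these data known. Genes were named by rule: the 15 highest and 15 lowest passing differences of the bright class, the 10 highest and 10 lowest of all genes, list members that passed, clock genes and members of lists described by their values, genes whose probe sets disagreed, and genes passing in opposite directions in the 2 pairs. Genes named for a motif match, for lying near the threshold or after their values were seen are introduced as such. The alternatives were other scalings, floors, detection filters, fold thresholds and the mean of a gene's probe sets. Simulated arrays with planted differences were used to check the code that makes the calls. Their noise was smaller than the spread of any signal class, and detection calls were copied from the sham ZT2 array. They therefore give no error rate for the real calls. Python 3.11.15, NumPy 2.4.6 and pandas 2.3.3 were used.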

Additional observations from a re-analysis of the deposited data

Results flagged for a closer look

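Eif2ak2, which encodes the double-stranded RNA kinase PKR, and Sspo, which encodes SCO-spondin, passed 2-fold in opposite directions in the sham and ADX pairs. Eif2ak2 had a log2 difference of -1.30 in sham (9.62 units at ZT2, not Present at ZT14) and 1.59 in ADX (not Present at ZT2, 11.7 units at ZT14). Sspo had -1.30 in sham (15.2 units at ZT2) and 1.03 in ADX (19.3 units at ZT14). All Present signals of both genes were below 20 units, and with the floor at 23.9 units both differences were 0.00. The difference between the pairs was not tested, since each group has 1 array.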

How the results depend on the processing

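The number of passing probe sets (367, 211 higher and 156 lower) became 142 (79 and 63) with the floor at the 95th percentile of Absent signals (23.9 units), 182 (109 and 73) when both sham arrays had to be Present, 1120 (727 and 393) with no detection filter, 1110 (588 and 522) at 1.5-fold and 86 (52 and 34) at 3-fold. It stayed within 1.5 times of 367 under signals as deposited, quantile normalization, median scaling, a floor of 1 unit and a doubled floor. Among the other scalings, the high floor and the averaging of probe sets, only the high floor moved the gene counts (258, 148 and 110) beyond that, to 118, 64 and 54. The filter and the threshold moved them too. Present calls on both sham arrays left 149 genes, and from 3-fold up only the classes of 29, 27 and 6 genes remained. The high floor also left 1 higher gene in the insulin and IGF axis, 1 higher among cytosolic heat shock genes, 1 lower gene each in fatty acid oxidation, liver transcription factors and phosphatases, and 0 for genes higher in the sulfur amino acid, coagulation and cell cycle lists and lower in the translation factor, respiratory chain, serpin and interferon lists. Averaging the probe sets of a gene left 1 higher gene in the insulin and IGF axis, 2 lower tubulin genes, and 1 lower gene each among phosphatases and in retinoid handling. Signals as deposited gave 1 lower gene each in the urea cycle (Gldc) and acute phase (Apcs) lists, 1 higher gene each in the apolipoprotein, cell cycle and lipid droplet lists, 0 higher translation factors and 2 lower solute carriers. Quantile normalization gave 0 higher cell cycle genes, 0 higher translation factors and 2 lower solute carriers, and median scaling 1 higher apolipoprotein gene. The cause of each change was not tested beyond what the setting itself does. Of 105 named passing genes, 29 no longer passed with the high floor, 14 with averaged probe sets, 6 with signals as deposited, 5 with quantile normalization and 1 with median scaling, and no gene changed sign among these. Signals as deposited shifted the median log2 difference of probe sets Present on both arrays by -0.08. No paired analysis was possible because each group has 1 array and the labels give no replicate numbers, and for the same reason no replicate could be left out. Differences of genes below about 25 units, and folds against arrays without a Present call, are limited by the signal over background.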

Other observations

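Genes outside the lists, chosen after their values were seen, also differed in the sham pair. Chka, the choline kinase that starts phosphatidylcholine synthesis, read 134 units at ZT2 and 38.0 at ZT14, and 144 and 56.9 in ADX. Of the tight junction genes, Cldn1 read 86.0 and 23.5 in sham and 59.4 and 18.3 in ADX, while Cldn2 read 67.8 and 25.3 in sham and 67.2 and 61.3 in ADX. Cldn1 thus passed in both pairs and Cldn2 in sham. Tars, a threonyl-tRNA synthetase, read 365 and 170, and Hsd17b2, which inactivates sex steroids, 415 and 196. On the higher side, Dio1, the deiodinase that activates thyroid hormone, read 162 and 333, and 124 and 159 in ADX. Timp3, an inhibitor of metalloproteinases, read 30.5 and 90.4, Pla2g12a, a secreted phospholipase, 27.9 and 88.6, and Mknk2, a kinase of the translation factor eIF4E, 49.7 and 120.4. All 3 passed in ADX as well.

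Some genes of nucleolar assembly and of polyamine and nucleotide synthesis, also chosen after their values were seen and not part of any list, passed as higher in sham with ADX values near or below 0. Nop56, a core protein of box C/D particles, read 24.4 units at ZT2 and 55.5 at ZT14, and 40.9 and 38.2 in ADX. Brix1, a factor of large subunit assembly, read 37.3 and 78.5, and 74.6 and 50.7 in ADX. Srm, the spermidine synthase, read 38.9 and 77.8, and 58.8 and 58.1 in ADX. Ctps, the CTP synthase, read 31.5 and 64.7, and 43.1 and 37.3 in ADX. In these 4 genes the sham ZT2 array was the lowest of the 4 arrays. No set of such genes was fixed, so their share among all genes of this kind is not given.

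A few probe sets of 1 gene disagreed. Of 4 Pbrm1 probe sets, 1 passed as higher (log2 1.05, not Present at ZT2) while another, Present on both arrays, gave -0.65. Vamp4 gave 0.89 by its main probe set and -1.98 by the other, which was not Present at ZT14. Cavin1 gave -0.78 and, by a probe set not Present at ZT2, 1.73. All of these signals were below 40 units.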
